A study of Mus musculus with 6 samples.

Results

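The 43 genes described here encode proteins of the lysosome and were named as a list, by function: 10 proteases, 13 enzymes that break down glycan chains, 3 enzymes that act on lipids or on lipid chains of proteins, 11 proteins of the lysosomal membrane, and 6 proteins grouped as tagging or sorting. The last group includes progranulin (Grn), which is taken up by the sorting protein Sort1. The list was chosen with earlier results of these data known. All 43 were found among the 17060 genes listed in any culture, and all 43 were among the 12306 genes tested. The cells were lineage-negative BM cells of WT mice, the marrow fraction left after mature cells are removed, grown in EPO-containing medium, in which progenitors mature into erythroblasts. Cultures received NUP-17d, a small molecule that binds the DEP domain of Plek2, or its vehicle DMSO for 48 hours, with 3 cultures in each group, and the compound is the 1 difference that the labels name. The labels call the cells erythroblasts and name neither the age of the mice nor whether the 3 cultures of a group came from different mice, so p-values measure the spread between these cultures.

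Lysosomes are acidic compartments in which hydrolases take apart proteins, glycans and lipids delivered by endocytosis and autophagy. Most hydrolases receive a mannose 6-phosphate tag in the Golgi, are carried to the lysosome by sorting receptors, and work inside a membrane lined by heavily glycosylated proteins, with transporters that export the breakdown products. Many of their genes carry the E-box TCACGTG near the start site, a sequence read by the transcription factors TFEB, TFE3 and MITF. Erythroblasts clear their organelles as they mature, whereas macrophages and other myeloid cells are rich in lysosomes.

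Most of the lysosomal genes were higher with NUP-17d once the libraries were corrected for composition. At an adjusted p under 0.05, 27 of the 43 rose, 3 fell (Ctsc, Lgmn and Laptm4a) and 13 did not pass, whereas over all tested genes 16.4% were called higher and 18.9% lower. The largest rise was that of Mcoln1, a calcium channel of the lysosomal membrane, at 1.52-fold, and the median log2 fold change of the 43 genes was 0.17, beside 0.014 over all tested genes. The median absolute log2 fold change was 0.19 for the 43 genes and 0.13 over all tested genes. The 3 NUP-17d values lay above all 3 DMSO values for 27 members and below them for 4, where 22.8% and 23.2% of all tested genes did so.

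The size of the shift depended on how the libraries were scaled. The libraries held 20278433 to 20419018 expected counts with DMSO and 20076409 to 20170197 with NUP-17d, but hemoglobin genes took 18.3% to 20.3% of the counts with DMSO and 11.8% to 13.1% with NUP-17d. TMM, which scales libraries so that most genes are on average unchanged, gave factors of 0.887 to 0.930 with DMSO and 1.08 to 1.11 with NUP-17d. Values below are CPM, counts scaled to a common library size, with the TMM factors applied unless stated. With library totals alone, the median of all tested genes moved to 0.28, 68.7% of them were called higher and 5.34% lower, and 39 of the 43 lysosomal genes were called higher and 0 lower. The median of the lysosomal genes stood 0.16 above that of all tested genes on both scales, on the log2 scale. A change of library scaling moves all genes by nearly the same amount, so this gap could hardly differ between the scales. DESeq2, which also corrects for composition, called 19 members higher and 3 lower, beside 9.63% and 15.0% of the genes it tested.

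**Figure D1:**
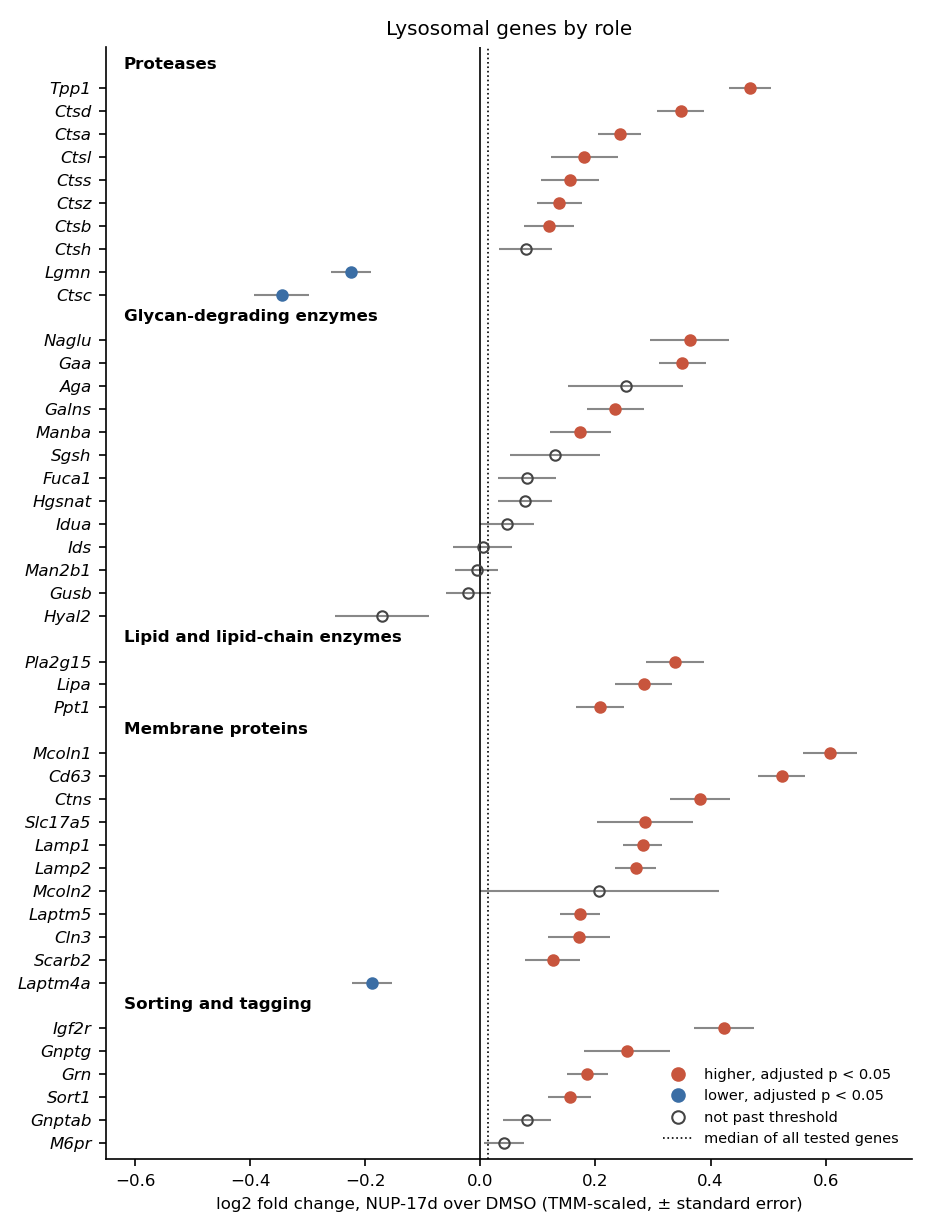
Each point is the log2 fold change (NUP-17d over DMSO, TMM scale) of 1 lysosomal gene, with bars of 1 SE from the edgeR fit to 3 cultures per group, ordered by role. Red points (27) were called higher and blue points (3) lower, open points (13) did not pass, and the dotted line is the median of all tested genes at 0.014.

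Because the E-box marks many lysosomal genes, the letters TCACGTG (read on the other strand as CACGTGA) and the shorter core CACGTG, which every TCACGTG contains, were counted in RefSeq promoter windows of GRCm38.p6, from 250 bases before to 50 bases after each start site. Windows were found for 36 of the 43 genes, and 11 of these 36 (30.6%) held TCACGTG, beside 4.29% of 27025 genes with a window and 7.04% of the 9932 tested genes with one. CACGTG alone was in the windows of 13 of the 36 genes (36.1%), 8.09% of all genes and 11.8% of tested genes. Where a gene had more than 1 window, it was counted as holding the motif if any window did. Of the 11 genes with TCACGTG, 9 rose and 1 fell (Lgmn), with a median log2 fold change of 0.28. Of the 25 without it, 15 rose and 2 fell, with a median of 0.17. Over all tested genes 16.4% were called higher and 18.9% lower. Across all tested genes with a window, the medians were 0.048 with the motif and 0.011 without it.

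Windows of 5 genes are printed to show that the motif and the direction did not go together in every case. Mcoln1 (chr8:3500269-3500568, plus strand), Igf2r (chr17:12769657-12769956, minus strand) and Lamp1 (chr8:13158911-13159210, plus strand) rose and hold it more than once. Lgmn (chr12:102439043-102439342, minus strand, the window of 1 of its 2 start sites) fell and holds it, but the window of its other start site does not. Tpp1 (chr7:105752186-105752485, minus strand) rose and does not hold it. Each runs 5′ to 3′ on the gene's strand, and capitals mark the E-box, where TCACGTG and CACGTGA can overlap in the palindrome TCACGTGA.
Mcoln1: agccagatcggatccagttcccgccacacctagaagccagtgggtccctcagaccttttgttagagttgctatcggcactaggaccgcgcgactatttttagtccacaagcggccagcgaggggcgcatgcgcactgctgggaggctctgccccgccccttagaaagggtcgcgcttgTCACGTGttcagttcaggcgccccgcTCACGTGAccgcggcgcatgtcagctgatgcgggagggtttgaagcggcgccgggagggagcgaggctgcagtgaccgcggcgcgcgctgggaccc
Igf2r: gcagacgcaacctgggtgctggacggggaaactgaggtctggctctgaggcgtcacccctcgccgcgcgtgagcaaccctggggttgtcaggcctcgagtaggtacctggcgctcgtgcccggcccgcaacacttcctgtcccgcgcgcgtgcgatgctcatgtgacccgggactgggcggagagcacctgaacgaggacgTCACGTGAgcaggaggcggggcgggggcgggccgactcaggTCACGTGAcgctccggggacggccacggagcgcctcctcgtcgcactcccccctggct
Lamp1: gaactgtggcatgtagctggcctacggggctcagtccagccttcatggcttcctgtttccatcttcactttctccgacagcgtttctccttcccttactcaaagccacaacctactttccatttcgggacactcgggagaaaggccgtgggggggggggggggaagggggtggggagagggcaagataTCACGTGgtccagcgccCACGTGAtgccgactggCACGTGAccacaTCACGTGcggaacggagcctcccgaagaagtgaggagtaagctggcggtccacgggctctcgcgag
Lgmn: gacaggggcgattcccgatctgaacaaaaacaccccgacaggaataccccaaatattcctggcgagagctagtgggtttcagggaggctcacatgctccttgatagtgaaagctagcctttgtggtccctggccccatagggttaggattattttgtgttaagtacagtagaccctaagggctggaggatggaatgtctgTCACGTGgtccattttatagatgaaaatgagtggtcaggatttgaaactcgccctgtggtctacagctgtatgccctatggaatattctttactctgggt
Tpp1: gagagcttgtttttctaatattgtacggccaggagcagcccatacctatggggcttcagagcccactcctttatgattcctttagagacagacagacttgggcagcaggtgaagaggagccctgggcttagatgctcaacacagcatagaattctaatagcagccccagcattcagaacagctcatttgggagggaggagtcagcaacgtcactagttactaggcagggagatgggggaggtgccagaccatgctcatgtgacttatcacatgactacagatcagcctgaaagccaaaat
The first base of the core CACGTG lay 71 and 45 bases before the start site of Mcoln1, 48 and 7 bases before that of Igf2r, and 61, 45, 28 and 15 bases before that of Lamp1. In Lgmn it lay 49 bases before the start site of the printed window. A match describes the letters of a window only, and other spellings of the motif were not searched, in Tpp1 or elsewhere. Binding of a factor was not measured in these cultures.

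The proteases took more of the counts than any of the other 4 groups, and most of them rose. Of 10, 7 rose, 2 fell and 1 (Ctsh) did not pass, beside 16.4% of all tested genes called higher and 18.9% lower. The median log2 fold change of the 10 was 0.15. With library totals alone, 8 were called higher and 0 lower, beside 68.7% and 5.34% of all tested genes. The summed level of the 10 proteases was 3963, 4183 and 4242 CPM in DMSO cultures 1, 2 and 3. It was 4422, 4987 and 4551 CPM in NUP-17d cultures 1, 2 and 3. The ratio was 1.13, or 1.36 with library totals alone. The groups did not overlap, and NUP-17d culture 2 was the highest.

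Tpp1, which removes tripeptides from the ends of proteins (GRCm38 chr7:105744811-105752235, minus strand), had 146, 155 and 147 CPM in DMSO cultures 1 to 3 and 202, 214 and 204 CPM in NUP-17d cultures 1 to 3. Every treated culture was above every control, and the rise was the largest among the proteases (log2 fold change 0.47 ± 0.037, SE, edgeR adjusted p = 7.01e-11). Ctsd, the main aspartic protease of the lysosome (GRCm38 chr7:142375911-142388038, minus strand), stood at 1116, 1160.1 and 1153 CPM with DMSO and at 1367, 1557 and 1442 CPM with NUP-17d. The groups were again apart (log2 fold change 0.35 ± 0.041, SE, edgeR adjusted p = 1.18e-07). Ctsa, a carboxypeptidase that also protects lysosomal sialidase and galactosidase, had 230.0, 236 and 243 CPM with DMSO and 266, 294 and 279 CPM with NUP-17d, with no overlap (log2 fold change 0.24 ± 0.038, SE, edgeR adjusted p = 1.22e-05).

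The cysteine cathepsins among the 43 genes, which cut proteins inside the lysosome, had log2 fold changes of 0.078 to 0.18, Ctsc apart. Ctsl had 33.2, 36.8 and 41.2 CPM with DMSO and 41.1, 43.5 and 41.5 CPM with NUP-17d. Its highest control lay above its lowest treated culture, and it passed the test by a small margin (log2 fold change 0.18 ± 0.058, SE, edgeR adjusted p = 0.0163). Ctsb, which took the most counts of the 43 genes, ranged from 1333 to 1427 CPM with DMSO and from 1430 to 1644 CPM with NUP-17d (log2 fold change 0.12 ± 0.044, SE, edgeR adjusted p = 0.0366). Ctss, an endopeptidase prominent in antigen-presenting cells, overlapped between the groups (log2 fold change 0.16 ± 0.051, SE, edgeR adjusted p = 0.0179), and Ctsz, a carboxypeptidase, did not (log2 fold change 0.14 ± 0.039, SE, edgeR adjusted p = 0.00661). Ctsh, an aminopeptidase, had a log2 fold change of 0.078 (edgeR adjusted p = 0.198). Without NUP-17d culture 2, Ctsb fell to 0.054 and Ctss to 0.076 on the log2 scale, and the calls of Ctsb, Ctsl, Ctss and Ctsz were lost (edgeR adjusted p = 0.342, 0.0624, 0.212 and 0.053). Without DMSO culture 1 the same 4 calls were lost, with log2 fold changes of 0.09, 0.11, 0.10 and 0.10. Ctsb and Ctsl also did not pass without DMSO culture 2 (0.13 and 0.17), nor Ctsb without DMSO culture 3 (0.14).

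Ctsc and Lgmn went the other way. Ctsc, a dipeptidyl peptidase that activates the granule proteases of myeloid cells (GRCm38 chr7:88278085-88310888, plus strand), had 190.1, 209 and 229 CPM with DMSO and 171, 166 and 157 CPM with NUP-17d. All 3 treated cultures lay below all 3 controls (log2 fold change -0.35 ± 0.048, SE, edgeR adjusted p = 1.86e-06), although with library totals alone the log2 fold change was -0.079 and did not pass (edgeR adjusted p = 0.182). Lgmn, an asparaginyl endopeptidase that processes other cathepsins (GRCm38 chr12:102394084-102439813, minus strand), had 265, 270.1 and 275 CPM with DMSO and 224, 237 and 233 CPM with NUP-17d. It fell with no overlap (log2 fold change -0.23 ± 0.035, SE, edgeR adjusted p = 1.03e-05), but its sign turned with library totals alone, to 0.042 (edgeR adjusted p = 0.314).

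**Figure D2:**
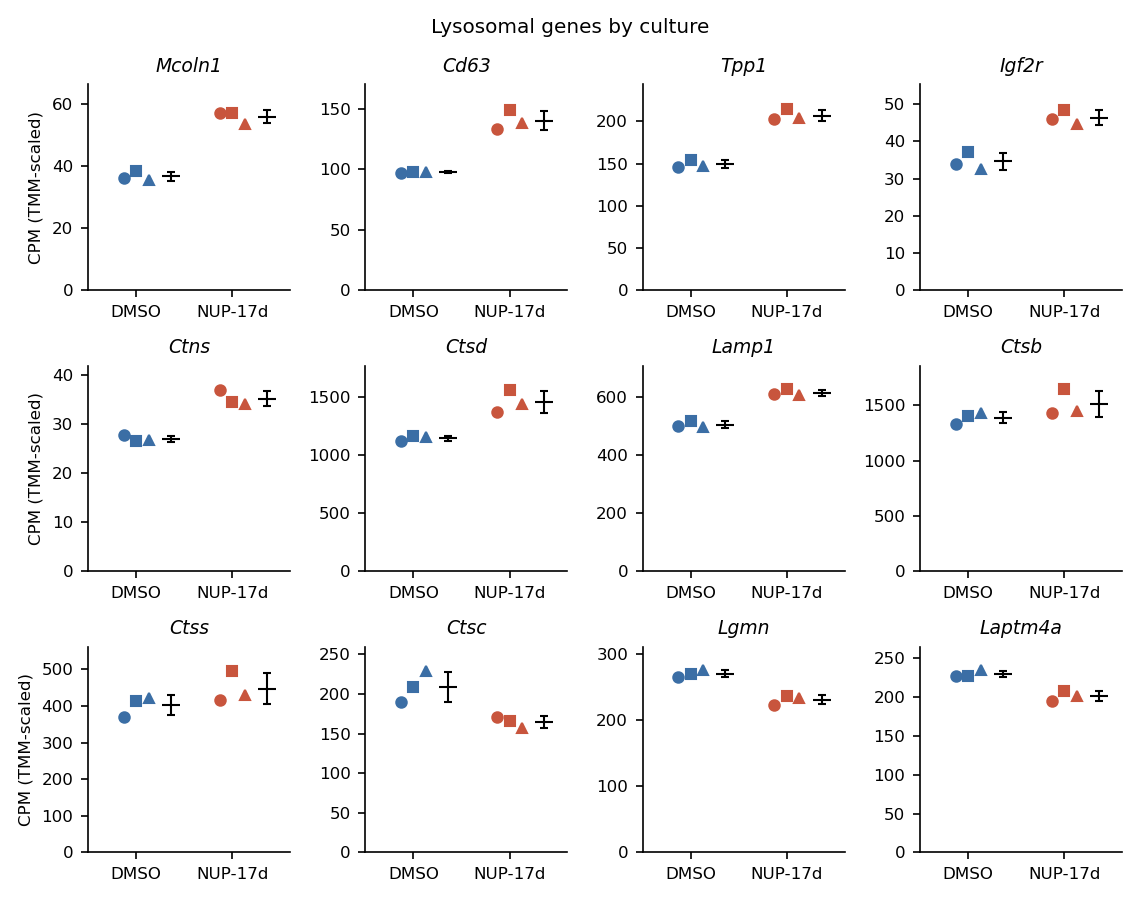
CPM on the TMM scale (axes start at 0) for 12 lysosomal genes, with circles, squares and triangles for cultures 1, 2 and 3, blue for DMSO and red for NUP-17d, and a black bar at the mean ± SD (n = 3) beside each group. Ctss overlaps between the groups, and Ctsc, Lgmn and Laptm4a are lower in all 3 NUP-17d cultures. NUP-17d culture 2 is the highest red point for Cd63, Tpp1, Igf2r, Ctsd, Lamp1, Ctsb and Ctss, and also for Lgmn and Laptm4a, which fell.

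The glycan-degrading enzymes split into a few that rose and a larger number that did not pass. Of 13, 4 rose, 0 fell and 9 did not pass by edgeR, where an unadjusted p under 0.05 was met by 32 of all 43 members and 5404 of all tested genes. Over all tested genes 16.4% were called higher and 18.9% lower. The median log2 fold change of the 13 was 0.081. With library totals alone, 12 of the 13 were called higher and 0 lower, beside 68.7% and 5.34% of all tested genes. Summed levels were 641, 651 and 659 CPM in DMSO cultures 1 to 3 and 690.4, 699 and 666 CPM in NUP-17d cultures 1 to 3, a ratio of 1.05, or 1.27 with library totals alone. The groups were apart, with NUP-17d culture 3 nearest to the controls.

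Naglu, an enzyme of heparan sulfate breakdown, had 18.5, 18.6 and 17.8 CPM with DMSO and 22.0, 26.1 and 22.5 CPM with NUP-17d. The groups did not overlap (log2 fold change 0.36 ± 0.068, SE, edgeR adjusted p = 1.26e-04). Gaa, acid alpha-glucosidase, which releases glucose from glycogen, had 58.6, 57.9 and 58.2 CPM with DMSO and 75.7, 74.9 and 72.2 CPM with NUP-17d. The cultures within each group lay close together (log2 fold change 0.35 ± 0.04, SE, edgeR adjusted p = 8.86e-08). Galns, a sulfatase of keratan and chondroitin sulfate, had 33.8, 33.2 and 32.4 CPM with DMSO and 37.2, 40.7 and 39.1 CPM with NUP-17d, with every treated culture above the controls (log2 fold change 0.23 ± 0.05, SE, edgeR adjusted p = 5.16e-04). Manba, beta-mannosidase, had 25.6, 26.7 and 25.8 CPM with DMSO and 28.6, 29.5 and 30.2 CPM with NUP-17d. Its groups were apart (log2 fold change 0.17 ± 0.053, SE, edgeR adjusted p = 0.0121), and the call was lost without NUP-17d culture 3 (log2 fold change 0.15, edgeR adjusted p = 0.0505).

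The other enzymes of heparan sulfate breakdown did not pass. Gusb, beta-glucuronidase, had the highest level per length of the glycan group, and its values were 138, 133 and 148 CPM with DMSO and 139, 139 and 134 CPM with NUP-17d. The groups overlapped (log2 fold change -0.021 ± 0.04, SE, edgeR adjusted p = 0.722). Hgsnat, an acetyltransferase, had a log2 fold change of 0.078, Sgsh, a sulfamidase, 0.13, Idua, an iduronidase, 0.046, and Ids, an iduronate sulfatase, 0.0038. Among enzymes of glycoprotein breakdown, Man2b1 (alpha-mannosidase) stood at -0.006, Fuca1 (alpha-fucosidase) at 0.081 and Aga (aspartylglucosaminidase) at 0.25, the last near the threshold (edgeR adjusted p = 0.0518). Hyal2, a hyaluronidase, was at -0.17 ± 0.082 (SE, edgeR adjusted p = 0.11) with all 3 treated cultures below the controls, and its sign turned with library totals alone.

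All 3 enzymes that act on lipids or lipid chains rose, where 16.4% of all tested genes were called higher. The same 3 were called higher with library totals alone and with DESeq2, beside 68.7% and 9.63% of the genes tested. Lipa, the acid lipase that releases cholesterol and fatty acids from lipoproteins, had 217, 237 and 235 CPM with DMSO and 260.1, 312 and 267 CPM with NUP-17d. NUP-17d culture 2 was the highest, and the groups did not overlap (log2 fold change 0.28 ± 0.05, SE, edgeR adjusted p = 5.07e-05). Pla2g15, an acidic phospholipase, had 28.2, 28.7 and 27.3 CPM with DMSO and 35.8, 36.2 and 34.5 CPM with NUP-17d, well apart (log2 fold change 0.34 ± 0.051, SE, edgeR adjusted p = 6.45e-06). Ppt1, which removes palmitate from proteins, had 62.0, 63.7 and 62.9 CPM with DMSO and 73.3, 69.3 and 75.4 CPM with NUP-17d, with every treated culture above the controls (log2 fold change 0.21 ± 0.042, SE, edgeR adjusted p = 2.86e-04). The summed ratio of the 3 was 1.21, or 1.46 with library totals alone.

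Of the 11 membrane proteins, 9 rose, 1 fell (Laptm4a) and 1 did not pass (Mcoln2), with a median log2 fold change of 0.27. Over all tested genes 16.4% were called higher and 18.9% lower. With library totals alone, 10 of the 11 were called higher and 0 lower, beside 68.7% and 5.34% of all tested genes. Summed levels were 1767, 1796 and 1759 CPM in DMSO cultures 1 to 3 and 2042, 2095 and 2022 CPM in NUP-17d cultures 1 to 3, a ratio of 1.16, or 1.39 with library totals alone. The spread within each group was small beside the gap between them.

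Mcoln1, which encodes the channel TRPML1 and lets calcium out of the lysosome (GRCm38 chr8:3500457-3515232, plus strand), had 36.3, 38.4 and 35.7 CPM with DMSO and 57.4, 57.2 and 53.6 CPM with NUP-17d. The groups were far apart (log2 fold change 0.61 ± 0.047, SE, edgeR adjusted p = 5.73e-11), and its log2 fold change was at or above that of 97.8% of tested genes. Cd63, a tetraspanin of lysosomes and secretory granules (GRCm38 chr10:128900989-128912822, plus strand), had 96.9, 98.0 and 98.2 CPM with DMSO and 133, 149 and 139 CPM with NUP-17d. The controls lay within 2 CPM of each other and every treated culture stood above them (log2 fold change 0.52 ± 0.041, SE, edgeR adjusted p = 6.23e-11).

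Of the exporters, Ctns, which carries cystine out of the lysosome, had 27.7, 26.6 and 26.7 CPM with DMSO and 36.9, 34.4 and 34.1 CPM with NUP-17d, with no overlap (log2 fold change 0.38 ± 0.053, SE, edgeR adjusted p = 1.79e-06). Slc17a5, which exports sialic acid, had 12.6, 11.4 and 12.0 CPM with DMSO and 12.8, 16.0 and 14.9 CPM with NUP-17d. Its lowest treated culture lay just above its highest control (log2 fold change 0.29 ± 0.084, SE, edgeR adjusted p = 0.00885), and the call was lost without NUP-17d culture 2 (0.21, edgeR adjusted p = 0.0709) and without DMSO culture 2 (0.25, edgeR adjusted p = 0.0535).

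Lamp1 and Lamp2, the major glycoproteins that line the membrane, rose together. Lamp1 averaged 506 ± 10.6 CPM in DMSO and 616 ± 10.2 CPM in NUP-17d (mean ± SD, n = 3), a log2 fold change of 0.28 ± 0.034 (SE, edgeR adjusted p = 1.84e-07). Lamp2 averaged 209.7 ± 7.82 CPM in DMSO and 253 ± 4.90 CPM in NUP-17d (mean ± SD, n = 3), a log2 fold change of 0.27 ± 0.036 (SE, edgeR adjusted p = 1.01e-06). Neither overlapped between the groups. Laptm5, a lysosomal membrane protein of hematopoietic cells with the highest level per length among the 11, had 571, 564 and 534 CPM with DMSO and 631, 634 and 617 CPM with NUP-17d. The groups were apart (log2 fold change 0.17 ± 0.035, SE, edgeR adjusted p = 2.93e-04). Cln3, the protein lost in juvenile Batten disease, and Scarb2, a sorting receptor and membrane protein of the lysosome, passed with log2 fold changes of 0.17 and 0.13 (edgeR adjusted p = 0.0154 and 0.0432), and Scarb2 overlapped between the groups. Without DMSO culture 1, Scarb2 fell to 0.067 and Cln3 to 0.13, and both calls were lost (edgeR adjusted p = 0.315 and 0.102).

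The exception was Laptm4a, a small membrane protein of late endosomes and lysosomes (GRCm38 chr12:8921664-8938742, plus strand), which had 227, 228 and 235 CPM with DMSO and 195, 208 and 202 CPM with NUP-17d. All treated cultures were below the controls (log2 fold change -0.19 ± 0.035, SE, edgeR adjusted p = 1.30e-04), while with library totals alone its log2 fold change was 0.079 (edgeR adjusted p = 0.0632). Mcoln2, a channel related to Mcoln1, had the fewest counts of the 43 genes, 26 to 54 per culture, and its log2 fold change of 0.21 had an SE of 0.21 (edgeR adjusted p = 0.471). It went from 0.021 without DMSO culture 3 to 0.37 without DMSO culture 2. A change of the size seen for most members was not detectable at this depth.

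The sorting and tagging group held 4 genes that rose, 0 that fell and 2 that did not pass of 6. Among those that rose, Grn encodes a cargo of Sort1 rather than a protein that tags or sorts hydrolases. All 6 were called higher with library totals alone, beside 68.7% of all tested genes. With TMM, 16.4% of all tested genes were called higher and 18.9% lower. Igf2r, the larger of the 2 mannose 6-phosphate receptors (GRCm38 chr17:12682406-12769664, minus strand), had 34.0, 37.2 and 32.7 CPM with DMSO and 46.0, 48.6 and 44.7 CPM with NUP-17d. Every treated culture was above the controls (log2 fold change 0.42 ± 0.052, SE, edgeR adjusted p = 2.70e-07). M6pr, the smaller receptor, had 211, 217 and 219 CPM with DMSO and 218, 227 and 221 CPM with NUP-17d, and its groups overlapped (log2 fold change 0.042 ± 0.034, SE, edgeR adjusted p = 0.375). The difference between the receptors was not tested.

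Grn, progranulin, had the highest level per length of the sorting group, at 309, 316 and 325 CPM with DMSO and 352, 375 and 353 CPM with NUP-17d. Its groups did not overlap (log2 fold change 0.19 ± 0.036, SE, edgeR adjusted p = 1.73e-04). Sort1, sortilin, which takes up progranulin and other lysosomal cargo, had 165, 172 and 168 CPM with DMSO and 195, 188 and 179 CPM with NUP-17d, also apart (log2 fold change 0.16 ± 0.038, SE, edgeR adjusted p = 0.00186). Gnptg, the gamma subunit of the enzyme that adds the mannose 6-phosphate tag, had 12.5, 12.1 and 12.1 CPM with DMSO and 13.9, 15.5 and 14.3 CPM with NUP-17d. It passed (log2 fold change 0.26 ± 0.074, SE, edgeR adjusted p = 0.00852), but not without NUP-17d culture 2 (0.21, edgeR adjusted p = 0.0573), and Gnptab, which encodes the catalytic subunit, had a log2 fold change of 0.081 (edgeR adjusted p = 0.136). The summed ratio of the 6 genes was 1.11, or 1.33 with library totals alone.

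Levels per length, given as the authors' FPKM divided by the TMM factor (mean ± SD, n = 3), differed widely between the members. Ctsd was the highest, at 574 ± 12.1 in DMSO and 732 ± 48.2 in NUP-17d, followed by Ctss at 296 ± 20.4 in DMSO and 331 ± 31.5 in NUP-17d and Ctsb at 287 ± 10.4 in DMSO and 312 ± 24.4 in NUP-17d. Ctss and Ctsb were within their spread of each other in both groups. Laptm5 (229 ± 8.07 in DMSO and 259 ± 3.85 in NUP-17d) and Lamp1 (224 ± 4.75 in DMSO and 273 ± 4.56 in NUP-17d) came next and were also within their spread with DMSO. The lowest were Sgsh, at 2.85 ± 0.181 in DMSO and 3.13 ± 0.231 in NUP-17d, and Mcoln2, at 0.757 ± 0.183 in DMSO and 0.877 ± 0.143 in NUP-17d. In CPM, Ctsb and Ctsd made up 18.1% and 14.9% of the members' summed level with DMSO, so sums over the list lean on these 2 proteases. Without Ctsb the ratio of the summed level over the other 42 genes was 1.14.

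**Figure D3:**
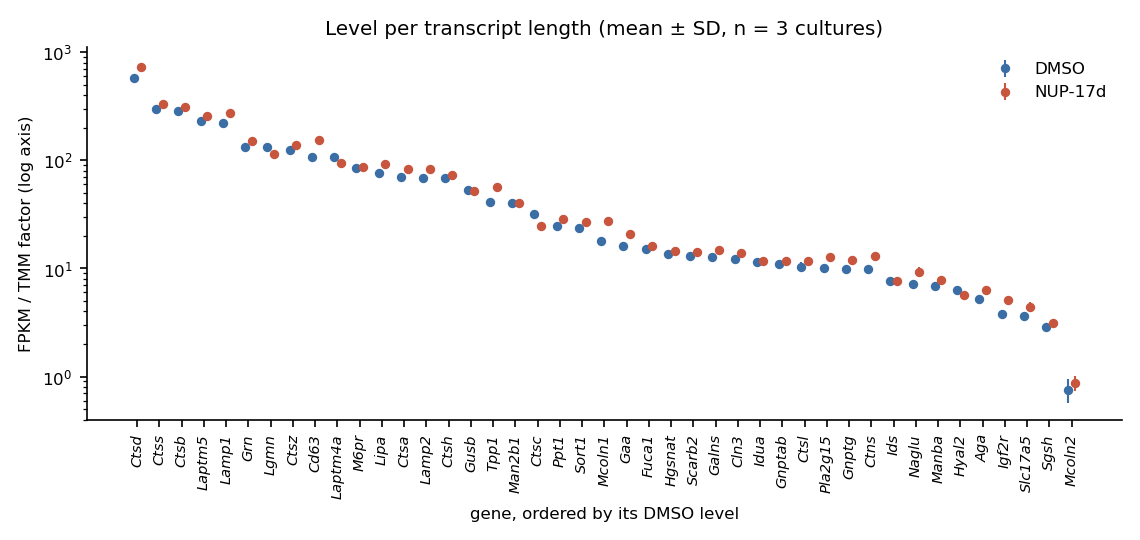
FPKM divided by the TMM factor on a log axis, with points at the mean and bars of 1 SD (n = 3 cultures, often smaller than the point), for the 43 genes ordered by their DMSO level. Levels run from 574 for Ctsd to 0.757 for Mcoln2 with DMSO, and the gap between red and blue points is widest for genes such as Mcoln1 and Cd63.

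Over all 43 genes, the summed level was 7470.4, 7772 and 7801 CPM in DMSO cultures 1 to 3 and 8411, 9116 and 8491 CPM in NUP-17d cultures 1 to 3, a ratio of 1.13, or 1.36 with library totals alone. The list took 0.662% to 0.723% of all counts with DMSO and 0.918% to 1.01% with NUP-17d. NUP-17d culture 2 was the highest of its group for 27 of the 43 genes (62.8%, beside 32.2% of all tested genes), and DMSO culture 1 was the lowest of its group for 24 (55.8%, beside 32.7%). Without NUP-17d culture 2, 19 members were called higher and 3 lower, and the calls of Cln3, Ctsb, Ctsl, Ctss, Ctsz, Gnptg, Scarb2 and Slc17a5 were lost. Without DMSO culture 1, 21 were called higher and 3 lower, and the calls of Cln3, Ctsb, Ctsl, Ctss, Ctsz and Scarb2 were lost. Scarb2 was also lost without NUP-17d culture 1 (0.10), where Ctsh passed (0.13), and Cln3 without NUP-17d culture 3 (0.15). Of the 30 members called, 21 (18 higher and 3 lower) passed in each of the 6 fits that left out 1 culture, and the same 21 passed with DESeq2, with its size factors in edgeR, without the filter on low counts, without hemoglobin genes and with a replicate block.

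Because the cells were sequenced in bulk, fewer cells of a type and less RNA per cell cannot be told apart. All 16 erythroid markers were detected and all 16 fell, with a median log2 fold change of -0.73, from a sum of 220776 to 254902 CPM with DMSO to 122128 to 136574 CPM with NUP-17d, and 14 of 16 were called lower with library totals alone. Trim58 (-1.03) and Kel (-0.74) were among the markers with the lowest p. Macrophage markers went both ways, and 4 of 16 rose, 4 fell and 8 did not pass, or 10 higher and 0 lower with library totals alone. Over all tested genes 16.4% were called higher and 18.9% lower, or 68.7% and 5.34% with library totals alone. The macrophage markers summed to 3006, 3136 and 3257 CPM in DMSO cultures 1 to 3 and 3353, 3669.5 and 3448 CPM in NUP-17d cultures 1 to 3. The ratio was 1.11, with NUP-17d culture 2 the highest, as for the lysosomal genes. Lyz2 alone averaged 2387 CPM of a mean sum of 3133 CPM with DMSO, and 2700 CPM of 3490 CPM with NUP-17d. The macrophage sum therefore leans on Lyz2. None of the 16 macrophage markers was at 0. Cd68 (0.30, itself a lysosomal membrane protein) and Lyz2 (0.18) rose, and Csf1r, the receptor that macrophages need to survive, had a log2 fold change of 0.043 (edgeR adjusted p = 0.401). Adgre1, which encodes F4/80, fell (-0.15). The part of these markers in the lysosomal result was not tested.

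The other marker lists held genes called in both directions. Of 13 neutrophil markers 3 rose and 2 fell (Csf3r 0.28, Retnlg -1.22, Ngp 0.17), summed at 4083 to 4249.5 CPM with DMSO and 4190.0 to 4463 CPM with NUP-17d. Of 10 megakaryocyte markers 7 rose and 1 fell (Gp1bb 0.47, Itgb3 0.32, Treml1 0.42), summed at 554 to 603 and 643 to 672 CPM. Of 7 tested mast cell and basophil markers 1 rose and 3 fell (Mcpt8 -0.39, Prss34 -0.30, Hdc -0.20), summed at 316 to 328 and 292 to 303 CPM, and Mcpt4 was in no table. Of 9 tested lymphoid and dendritic markers 1 rose and 4 fell, led by the genes of antigen presentation H2-Ab1 (-0.71), Cd74 (-0.61) and H2-Aa (-0.68), summed at 1218 to 1274 and 794 to 890.3 CPM. With library totals alone the counts higher and lower were 10 and 1, 9 and 1, 3 and 0, and 2 and 3, in the same order. The shares of all tested genes called higher and lower were 16.4% and 18.9% with TMM, and 68.7% and 5.34% with library totals alone.

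**Figure D4:**
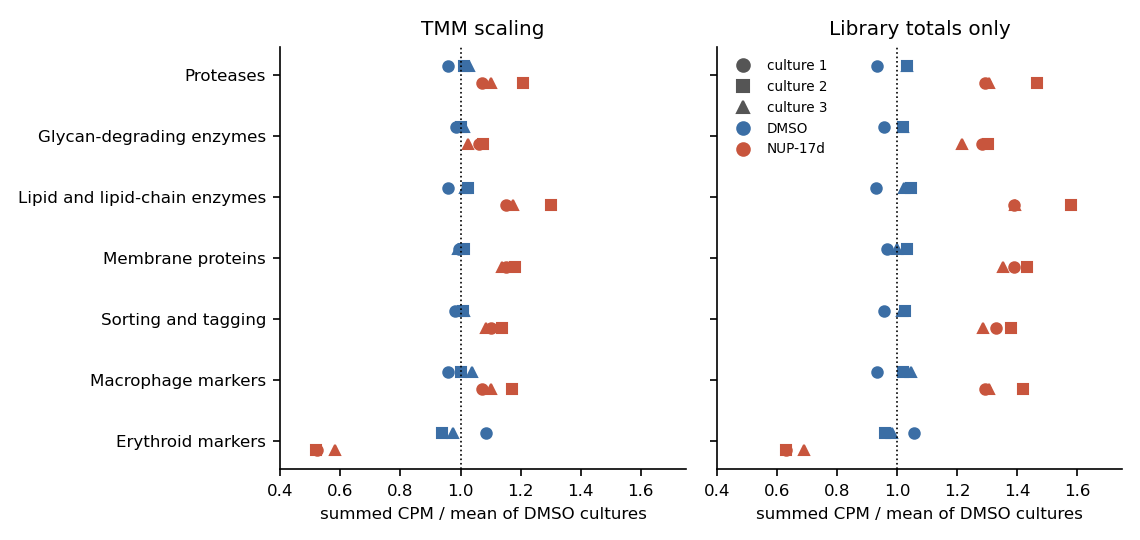
Summed CPM of each role, of 16 macrophage markers and of 16 erythroid markers in each culture, divided by the mean of the 3 DMSO cultures, with TMM scaling (left) and with library totals alone (right). Red symbols lie right of blue symbols for all 5 roles on both scales, the macrophage markers lie to the right as well (ratios of 1.11 and 1.34), and the erythroid markers lie to the left (0.541 and 0.651). Most of the macrophage sum is the single gene Lyz2.

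A longer list of other lysosomal genes showed a like balance. It too was chosen with earlier results of these data known, so it is not an independent check. Of 72 genes, 71 were tested and Lamp3 was in no table. Of the 71, 44 rose, 8 fell and 19 did not pass (median log2 fold change 0.17), and 61 were called higher and 3 lower with library totals alone. Among all tested genes the shares higher and lower were 16.4% and 18.9%, or 68.7% and 5.34% with library totals alone. By role, 20 of 35 hydrolases rose and 4 fell, 4 of 4 activators and lipid transfer proteins rose, 10 of 17 membrane proteins rose and 3 fell, and 10 of 15 sorting and control genes rose and 1 fell. The lowest p belonged to Hpse, which cuts heparan sulfate, Psap, the precursor of the saposins that help lipid hydrolases, and Fuca2, a fucosidase. Psap had 2738, 2894 and 2785 CPM with DMSO and 3771, 4142 and 3670.3 CPM with NUP-17d, with no overlap (log2 fold change 0.46 ± 0.042, SE, edgeR adjusted p = 1.65e-09). Per length it stood above Ctsd, at 1064 ± 30.7 in DMSO and 1469 ± 95.4 in NUP-17d (FPKM divided by the TMM factor, mean ± SD, n = 3). Hpse rose by 0.53 and Fuca2 by 0.43 on the log2 scale. The genes that fell were Ctse, Slc38a9, Ctsf, Plbd1, Slc11a2, Tmem9, Acp5 and Tfe3, of which Ctse, Ctsf and Plbd1 were still called lower with library totals alone. Tmem9 was called higher with library totals alone (0.14, edgeR adjusted p = 0.00308), and Acp5 did not pass with DESeq2 (DESeq2 adjusted p = 0.118). With single cultures left out, Tmem9 was lost without DMSO culture 1 and without NUP-17d culture 1 or 2. Acp5 was lost without DMSO culture 2 or 3 and without NUP-17d culture 1 or 3.

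The 3 transcription factors that read the E-box gave no call that held throughout. Tfeb had 18.2, 16.7 and 16.8 CPM with DMSO and 19.3, 22.0 and 18.7 CPM with NUP-17d, with no overlap (log2 fold change 0.22 ± 0.07, SE, edgeR adjusted p = 0.0174), and passed in 3 of the 6 fits that left out 1 culture. Mitf had 8.84, 10.5 and 11.2 CPM with DMSO and 12.3, 13.9 and 11.3 CPM with NUP-17d, also without overlap (log2 fold change 0.29 ± 0.093, SE, edgeR adjusted p = 0.0147), and passed in 4 of the 6. Without NUP-17d culture 2 both calls were lost, at 0.14 and 0.22 on the log2 scale, and neither passed with DESeq2. Tfeb was also lost without DMSO culture 2 (0.19) and without DMSO culture 3 (0.20), and Mitf without DMSO culture 1 (0.20).

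Tfe3 had 109, 107 and 99.7 CPM with DMSO and 101, 95.7 and 97.7 CPM with NUP-17d. Its groups overlapped and its value lay at the threshold on the lower side (log2 fold change -0.10 ± 0.04, SE, edgeR adjusted p = 0.0499), it passed in 2 of the 6 fits that left out 1 culture, and with library totals alone it was called higher (0.17). The log2 fold changes without DMSO cultures 1 and 2 and without NUP-17d cultures 2 and 3 were -0.075, -0.092, -0.084 and -0.10, none of which passed. These factors are controlled largely by where the protein sits in the cell, which RNA levels do not show.

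The exons of 14 of the 43 genes overlap another gene in GENCODE M21 of GRCm38, mostly on the opposite strand. They are Ctsa, Ctsb, Ctsd, Ctsl, Ctsz, Idua, Sgsh, Ppt1, Lamp1, Cln3, Sort1, Gnptab, Gnptg and Grn. Whether the authors' counting used the strand is not given in the sources used here, so reads of the partner gene cannot be told apart in these 14. The counts were whole in every culture for 27 members, and 25 members averaged at least 1000 counts.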

How the data were processed

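RNA-Seq tables of 3 DMSO and 3 NUP-17d cultures were analysed. The authors deposited for each gene an expected count (estimated reads, not normalized, 27.8% to 28.5% of values not whole), an FPKM value (scaled by length and library total, not by composition) and a transcript length. The labels describe oligo dT selection, random priming and a DNBseq instrument, while the study's methods name a stranded Illumina kit. The submitters' processing notes name build mm10. Aligner, counting program and strand setting are not given in the sources used here. A gene absent from a table was taken as 0.

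Expected counts were rounded and tested with edgeR 4.0.16 in R 4.3.3 (filterByExpr, TMM, glmQLFit, glmQLFTest) over 12306 genes, and p-values were adjusted by Benjamini-Hochberg and called under 0.05. SEs are the log2 fold change divided by the square root of F. The replicate number is not said to mark an animal or batch, so no block was used in the main fit. Same-numbered cultures did not deviate together (correlations of 0.034, -0.021 and -0.032). Differently numbered ones ranged from -0.055 to 0.083. The labels name no batch, and replicates differed by more than sampling noise.

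The members and lists were chosen with earlier results of these data known. All members were named, with values per culture for up to 4 per role and direction with the largest changes and for the highest level per length of each role, and of other lists up to 3 genes with the lowest p, plus Tfeb, Tfe3 and Mitf. A few genes that fall under it are left unreported. Alternatives were DESeq2 1.42.0, its size factors in edgeR, library totals alone, no filter, no hemoglobin genes, limma 3.58.1 on log2 FPKM with a pseudocount of 1 or 0.1 at a mean FPKM of at least 1, a replicate block, and each culture left out. The fits were tested on simulated data without a composition shift between the groups, so that test does not cover the choice of scaling. Positions came from GENCODE M21 (GRCm38) and promoters from RefSeq (GRCm38.p6).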

Additional observations from a re-analysis of the deposited data

How the results depend on the processing

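Of the 43 members, 18 kept their call and direction under each alternative, and no alternative that corrects for composition reversed a call. With a replicate block 27 members were called higher and 3 lower, and over all genes 2121 and 2422, and the block changed no call of a member. Removing hemoglobin genes, dropping the filter or using DESeq2's size factors left 27 and 3. DESeq2 called 1162 genes higher, and its 8 lost member calls were Cln3, Ctsb, Ctsl, Ctss, Gnptg, Manba, Scarb2 and Slc17a5. Settings without a composition correction moved the median log2 fold change of all genes from 0.014 to between 0.24 and 0.28. Library totals alone called 8458 genes higher and 657 lower, limma on log2(FPKM + 1) 7895 and 599, and limma on log2(FPKM + 0.1) 7880 and 600. In these 3 settings 0 members were called lower by edgeR or limma, and with library totals alone 3 other lysosomal genes were. In the same 3 settings, in that order, log2 fold changes turned positive for Gusb (0.25, 0.25 and 0.25), Hyal2 (0.097, 0.088 and 0.10), Laptm4a (0.079, 0.082 and 0.083), Lgmn (0.042, 0.045 and 0.046) and Man2b1 (0.26, 0.26 and 0.27). Summed ratios with library totals alone were 1.36 for all members, 1.36 for proteases, 1.27 for glycan enzymes, 1.46 for lipid enzymes, 1.39 for membrane proteins and 1.33 for sorting proteins. Ids turned to -0.00068 with DESeq2 and -0.00013 with its size factors.

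Leaving out 1 culture gave 19 to 27 members higher and 3 lower in each fit, 1642 to 1827 genes higher and 2035 to 2181 lower, and 36 to 43 other lysosomal genes higher and 6 to 7 lower. Signs turned for 4 members that had not passed, with ranges of -0.055 to 0.022 for Gusb, -0.034 to 0.050 for Ids, -0.0035 to 0.079 for Idua and -0.033 to 0.019 for Man2b1. Other members that had not passed moved by over 1.5 times without changing sign, with ranges of 0.022 to 0.13 for Ctsh (lowest without NUP-17d culture 2), 0.041 to 0.10 for Fuca1, 0.077 to 0.19 for Sgsh, 0.025 to 0.054 for M6pr and -0.22 to -0.10 for Hyal2. Which scaling is right cannot be told from these tables, as they hold neither a spike-in nor cell numbers. Genes with few counts, such as Mcoln2, were measured least precisely, and overlapping genes share reads.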

Other observations

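Of the other lysosomal genes, some that were called were chosen for naming after their values were seen. Npc1, which moves cholesterol out of the lysosome, had 104, 115 and 112 CPM in DMSO cultures 1 to 3 and 144, 161 and 131 CPM in NUP-17d cultures 1 to 3, with no overlap (log2 fold change 0.40 ± 0.052, SE, edgeR adjusted p = 7.83e-07). Clcn7, a chloride-proton exchanger, had 49.1, 49.7 and 49.0 CPM with DMSO and 69.6, 67.6 and 59.9 CPM with NUP-17d (log2 fold change 0.41 ± 0.049, SE, edgeR adjusted p = 1.67e-07). Slc11a1, a metal transporter of phagocytes, had 68.2, 73.1 and 72.9 CPM with DMSO and 90.8, 106 and 90.6 CPM with NUP-17d (log2 fold change 0.42 ± 0.05, SE, edgeR adjusted p = 1.68e-07).

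Some genes on the list of other lysosomal genes were lower. Where their proteins sit in these cells was not measured. Ctse, an aspartic protease found in erythroid and immune cells, had 137, 119 and 128 CPM with DMSO and 95.9, 93.1 and 98.2 CPM with NUP-17d (log2 fold change -0.42 ± 0.043, SE, edgeR adjusted p = 1.34e-08). Ctsf, a cysteine cathepsin, had 27.4, 26.1 and 26.2 CPM with DMSO and 18.4, 19.1 and 18.8 CPM with NUP-17d (log2 fold change -0.50 ± 0.058, SE, edgeR adjusted p = 9.00e-08). Slc11a2, a metal transporter related to Slc11a1, had 54.40, 50.02 and 52.20 CPM with DMSO and 42.8, 42.7 and 41.7 CPM with NUP-17d (log2 fold change -0.30 ± 0.045, SE, edgeR adjusted p = 6.88e-06). Slc38a9, which senses arginine at the lysosome for mTORC1, had 99.2, 96.7 and 94.5 CPM with DMSO and 75.1, 77.2 and 76.3 CPM with NUP-17d (log2 fold change -0.35 ± 0.038, SE, edgeR adjusted p = 4.63e-08). The groups were apart for these 4 genes. With library totals alone Ctse (-0.15) and Ctsf (-0.23) still passed, and Slc38a9 (-0.078) and Slc11a2 (-0.032) did not.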
